A study of Rattus norvegicus with 9 samples.

Results

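ND1, ND2, ND3, ND4, ND5, CYTB, COX1, COX2, COX3 and ATP6 are protein genes of the mitochondrial genome, and their transcripts were followed here through the cell classes of the healing rat tibia. The 10 genes were chosen by their symbols and are 10 of the 41801 genes listed for every library. They and the gene lists used below were chosen with earlier results of these data known. Mitochondrial DNA is transcribed into long precursors that are cut at tRNA genes into single messengers, so that most of these genes start from one promoter region and differ afterwards in processing and decay. ND1 to ND5 encode subunits of complex I, CYTB of complex III, COX1 to COX3 of complex IV and ATP6 of complex V, which together carry out oxidative phosphorylation with many subunits encoded in the nucleus. Mature neutrophils are known for few mitochondria and reliance on glycolysis, whereas macrophages and stromal cells hold more of them.

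The libraries were made on the 10x Genomics Chromium platform from tissue at the osteotomy site of Sprague-Dawley rats aged 6 to 8 weeks. Every rat carried a 3-mm circular osteotomy of the proximal tibia and a 4-mm full-thickness skin wound on the back of the hind foot, in the controls as well. TO libraries came from osteotomy alone, and TOE libraries from osteotomy followed by radial shock waves over the cut bone, given on day 2 and again on day 4, so that the day 2 TOE libraries were collected after the first session alone and the day 4 ones after both. A library such as TOE 4d 24h is named for its arm, the day counted from injury and the hours counted from that day's shock waves or the matching time in TO, and TO 2d 24h was not analysed here. The question followed here was how the 10 genes differed between the 4 libraries taken at 4 h and the 4 taken at 0 or 24 h, called the other hours. Each hour class held 1 library of each arm and day, so that arm and day were balanced, and the library of TO on day 2 at the other hours was taken at 0 h. Wherever 4 values are given for an hour class, they stand in the order TO day 2, TO day 4, TOE day 2 and TOE day 4.

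Transcripts were counted by unique molecular identifiers (UMIs). The libraries held 12451 to 17187 barcodes and 95954800 to 144146202 UMIs, and 40 to 110 barcodes were shared between 2 libraries. Of 116711 barcodes, 110477 were kept, with at least 200 genes, at most 20% mitochondrial UMIs and no doublet call, and marker genes named them B-cell-like (54.5% of cells), neutrophil-like (11.7%), monocyte-like (10.3%) and 8 smaller classes, with 9.32% left unnamed. 1 of the smaller classes is called Ms4a3-high here, after a gene among the 10 leading genes of both its clusters, because a marker list of granulocyte-monocyte progenitors matched it only in part. Its cluster of 1710 cells (before the mitochondrial limit) was led by the granule protease genes Ctsg, Elane and Prtn3 and by Mpo, whereas its cluster of 2437 cells was led by the defensin genes RatNP-3b, Defa5, Np4 and Defa11, with 1 progenitor marker among the 10 leading genes. A cluster led by the same defensin genes was unnamed when the limit of 20% was applied before clustering and neutrophil-like when doublets were kept. Mitochondrial genes were kept out of the clustering, so that the classes were not defined by the genes described here. TOE 4d 24h stood apart: haemoglobin genes held 0.0160% of its UMIs, against 0.744% to 1.88% in the other 7 libraries, and it had 0 erythroid-like cells. The summed shares, the passes of the 10 genes and their parts are therefore also given without it, whereas the counts for other mitochondrial genes and for lists of nuclear genes are given with it only. Each condition was 1 library. The series description counts 9 rats in all, beside 9 conditions labelled, without giving how many stood behind each library. If no rat served 2 conditions, each library was 1 rat. The p-values therefore measure the spread between these libraries, and anything else the 4 h libraries shared cannot be told apart from the hour.

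Macrophage-like cells gave the largest share of their UMIs to the 10 genes and neutrophil-like cells the smallest. Averaged over libraries, the summed share of all UMIs was 2.74% in macrophage-like cells, 2.38% in mesenchymal-like and 2.18% in monocyte-like cells. The macrophage-like class was not pure, since its cluster averaged 0.922 of the highest cluster's level over the macrophage markers and 0.817 over the osteoclast markers. With finer clusters (resolution 2), 438 cells formed an osteoclast-like cluster and no cluster was named macrophage-like. There, 559 cells led by C1qa, C1qc and C1qb were left unnamed for low UMIs, with a median of 1406 per cell. The top rank therefore belongs to a mixed class. The dendritic-cell-like class was likewise mixed: its 1 cluster averaged 0.785 over the dendritic cell markers and 0.495 over the plasma cell markers, its leading genes held Igha and Jchain, genes of antibody-secreting cells, beside Siglech and Flt3, and at resolution 2 a plasma-cell-like cluster of 73 cells stood apart. Ms4a3-high, T or NK-cell-like, dendritic-cell-like, endothelial-like and B-cell-like cells lay close together, with means between 1.87% and 2.03%. Neighbours among them stood in that order in only 3 to 5 of 8 libraries, so that neighbours were not separated beyond the spread between libraries. Classes further apart in this order were not compared within libraries. Mast cell or basophil-like cells followed with 1.63%, erythroid-like cells with 1.38% over 7 libraries and neutrophil-like cells with 0.909%. The neutrophil-like share was below that of the other 8 classes tested in 8 of 8 libraries, and the macrophage-like share was above theirs in 6 of 8. The neutrophil-like class joined 3 clusters. Before the mitochondrial limit they held 5540 cells led by the granule genes Ngp and Lcn2, 2144 led by Gys1 and 5277 led by Hcar2 and G0s2. Shares and parts are given for the 3 together, not for mature neutrophils alone. The B-cell-like class joined 9 clusters. Before the mitochondrial limit they held, among others, 2643 cells led by Dntt, 7439 with Top2a and Mki67 among their leading genes and 2309 led by Ms4a1. B-cell-like values are for the 9 together, and the mix of clusters in each library is not given. A cluster of 5241 cells with 7 of 9 B cell markers raised was left unnamed, since more of its leading genes were dendritic cell markers. The mesenchymal-like class was 1 cluster of 1306 cells before the mitochondrial limit, with a median of 31225.5 UMIs per cell. Another cluster of 1579 cells, with 12 of 12 mesenchymal markers raised and a median of 886 UMIs, was left unnamed for low UMIs. The mesenchymal-like values and rank leave that cluster out. In erythroid-like cells, where haemoglobin took 36.1% to 46.3% of UMIs, the share without haemoglobin in the total was 1.53% to 4.06%. The levels of the 10 genes are not ranked against each other here, since no transcript lengths of mitochondrial genes were in the reference tables used.

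**Figure D1:**
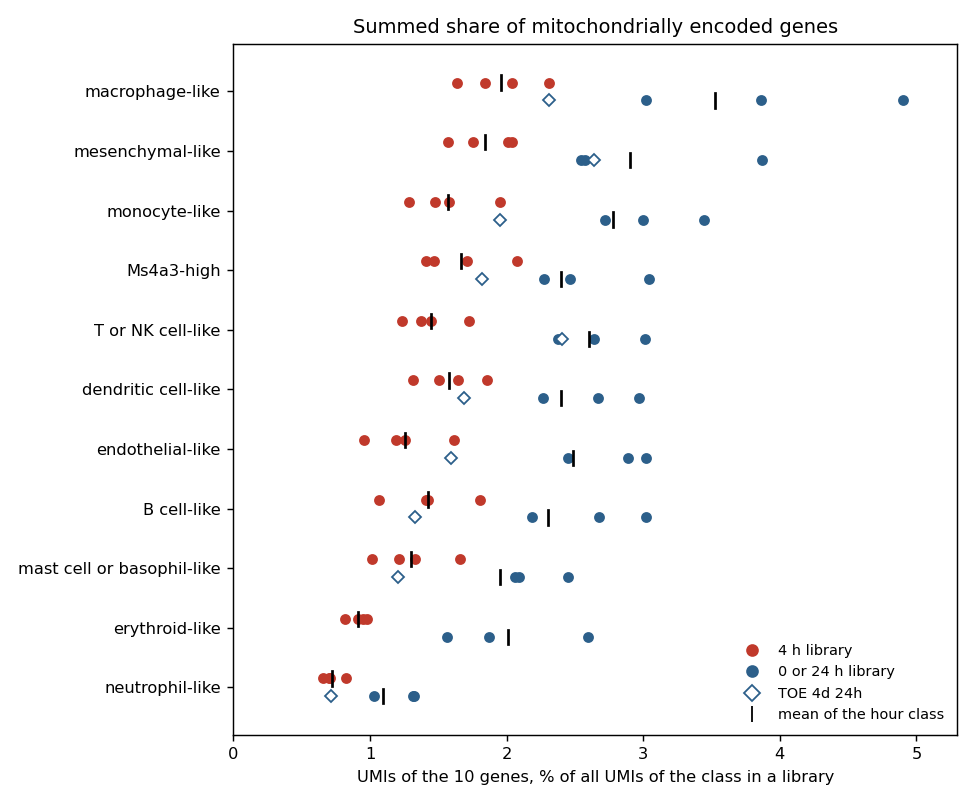
Share of all UMIs (%) held by the 10 genes in each cell class, 1 point per library, red for the 4 h libraries, blue for 0 or 24 h, an open diamond for TOE 4d 24h and a black bar for the mean of the hour class. The 4 h mean lies left of the other mean in every class, and the open diamond lies among or near the red points in most classes but with the blue points in T or NK-cell-like and mesenchymal-like cells.

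The summed share was lower at 4 h in each of the 9 classes with at least 20 cells in all 8 libraries, and the mean at the other hours was 1.44 to 1.80 times that at 4 h. In B-cell-like cells it was 1.81%, 1.43%, 1.07% and 1.41% at 4 h and 2.19%, 3.02%, 2.67% and 1.33% at the other hours. The 4 h values all lay below those of TO 2d 0h, TO 4d 24h and TOE 2d 24h, while TOE 4d 24h lay within the 4 h range, so that the hour classes overlapped, with 1.43% ± 0.301 (SD, n = 4) at 4 h and 2.30% ± 0.734 (SD, n = 4) at the other hours. In T or NK-cell-like cells the share was 1.72%, 1.45%, 1.24% and 1.37% at 4 h and 2.37%, 3.01%, 2.64% and 2.40% at the other hours. Here all 4 h libraries lay below all others, TOE 4d 24h included, although it held only 29 such cells.

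Neutrophil-like cells showed a similar picture at a lower level, with 0.827%, 0.709%, 0.657% and 0.700% at 4 h and 1.03%, 1.32%, 1.32% and 0.714% at the other hours. Monocyte-like cells had 1.95%, 1.48%, 1.28% and 1.58% at 4 h and 2.72%, 3.45%, 3.00% and 1.95% at the other hours. In neutrophil-like cells TOE 4d 24h lay inside the 4 h range, and in monocyte-like cells it lay just below the highest 4 h library. Mesenchymal-like cells, the stromal class without its unnamed low-UMI cluster, had 2.01%, 1.57%, 2.04% and 1.76% at 4 h and 2.57%, 3.87%, 2.54% and 2.64% at the other hours, with no overlap. Macrophage-like cells had 2.31%, 1.84%, 1.64% and 2.04% at 4 h and 3.02%, 4.90%, 3.86% and 2.31% at the other hours, and TOE 4d 24h, with 37 cells of this class, lay only just above the highest 4 h library. In dendritic-cell-like, Ms4a3-high and mast cell or basophil-like cells the 4 h libraries ranged from 1.01% to 2.07% and the others from 1.21% to 3.04%.

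Over the 9 classes, the 4 h libraries all lay below all others in 3 classes, and in 9 of 9 once TOE 4d 24h was left out, a step that can only keep or raise this count. Macrophage-like cells count among the 3 by a gap smaller than counting error, between 2.31% in TO 2d 4h (95% Wilson interval 2.29% to 2.33%) and 2.31% in TOE 4d 24h (2.27% to 2.36%), and without the mitochondrial limit the order was the other way, 2.44% and 2.32%. TOE 4d 24h lay within the 4 h range in 6 classes and above it in 3, which were T or NK-cell-like, macrophage-like and mesenchymal-like cells. When each 4 h library was set beside the library of its own arm and day at another hour, the 4 h share was lower in 34 of 36 pairs, and both exceptions were in the TOE day 4 pair. These are 4 pairs of libraries counted once in each of the 9 classes, so the 36 are not independent. The widest interval of the classes tested was 2.35% to 2.46%, in T or NK-cell-like cells of TOE 4d 24h, and these intervals cover counting error only, not the spread between samples. With the class mix of every library held at its mean, the share was 1.79%, 1.42%, 1.19% and 1.43% at 4 h and 2.24%, 3.05%, 2.62% and 1.57% at the other hours, so that the hour classes overlapped, with TOE 4d 24h below TO 2d 4h. Median UMIs per B-cell-like cell were 4174 to 4700 at 4 h and 4121 to 4504 at the other hours, which overlapped. A share cannot tell fewer mitochondrial transcripts from more of other transcripts.

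The limit of 20% mitochondrial UMIs per cell removes the cells with most of these transcripts, so the shares were repeated without it. Barcodes over the limit made up 1.12%, 1.63%, 1.16% and 1.10% at 4 h and 1.73%, 2.27%, 3.46% and 0.940% at the other hours. They were thus fewer at 4 h than in TO 2d 0h, TO 4d 24h and TOE 2d 24h and fewest in TOE 4d 24h. Without the limit, the summed share rose by 0.0398 percentage points in the median over 72 class and library values and by at most 0.330. B-cell-like cells then had 1.85%, 1.47%, 1.11% and 1.44% at 4 h and 2.25%, 3.15%, 3.01% and 1.35% at the other hours, and neutrophil-like cells had 0.659% to 0.832% at 4 h and 0.717% to 1.34% at the other hours. The differences of the means (4 h minus other hours) ran from -1.64 to -0.373 percentage points over the 9 classes, against -1.57 to -0.372 with the limit.

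Each gene was then tested in each class on UMIs summed per library, 4 libraries at 4 h against 4 at the other hours, with edgeR's quasi-likelihood test and Benjamini-Hochberg adjustment over all genes of the class, at an adjusted p under 0.05. Of 90 tests of the 10 genes, 40 passed as lower at 4 h and 1 as higher, where 6.88% of all 110527 tests passed as lower and 6.04% as higher. The median log2 difference of the 90 was -0.74, against -0.01 over all tests, and 81 of 90 were below 0. The 10 genes were chosen with earlier results of these data known, and the 90 tests share 8 libraries and are not independent. Their counts beside the all-gene shares are therefore a description. COX2, CYTB and ND2 passed as lower in all 9 classes, 3 of the 10 genes, where 0.695% of the 7336 genes tested in every class did so. ND5 was the exception, with a log2 difference above 0 in every class and a pass in dendritic-cell-like cells, where 4.99% of all genes passed as higher.

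By class, T or NK-cell-like cells had 9 of the 10 genes lower (7.64% of all genes tested in the class) and Ms4a3-high cells 6 (6.32%). Monocyte-like cells had 5 (6.67% of all genes) and neutrophil-like cells 5 (6.18%). The remaining classes had 3 each: B-cell-like (11.8% of all genes), dendritic-cell-like (5.28%), macrophage-like (6.88%), mast cell or basophil-like (5.81%) and mesenchymal-like (3.03%). Without TOE 4d 24h the 90 tests gave 65 lower and 1 higher, with 10.8% of all tests lower. Leaving out another library moved the total of 41 passes to 25 without TO 2d 0h, 23 without TO 4d 24h, 22 without TOE 2d 24h, 17 without TO 4d 4h, 20 without TOE 2d 4h, 21 without TOE 4d 4h and 36 without TO 2d 4h. The share of all genes that passed is not given for these fits, so it is not shown whether these changes are particular to the 10 genes. By gene, the number of classes with a pass as lower moved, over the 8 fits without 1 library, to 7 to 9 for COX2, 2 to 9 for CYTB, 1 to 8 for ND2, 2 to 8 for COX1, 1 to 8 for ND4, 1 to 6 for ND1, 1 to 6 for ND3, 0 to 6 for COX3 and 1 to 5 for ATP6, and no fit without another library gave more than the one without TOE 4d 24h. With no mitochondrial limit on cells, the totals were again 40 lower and 1 higher.

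**Figure D2:**
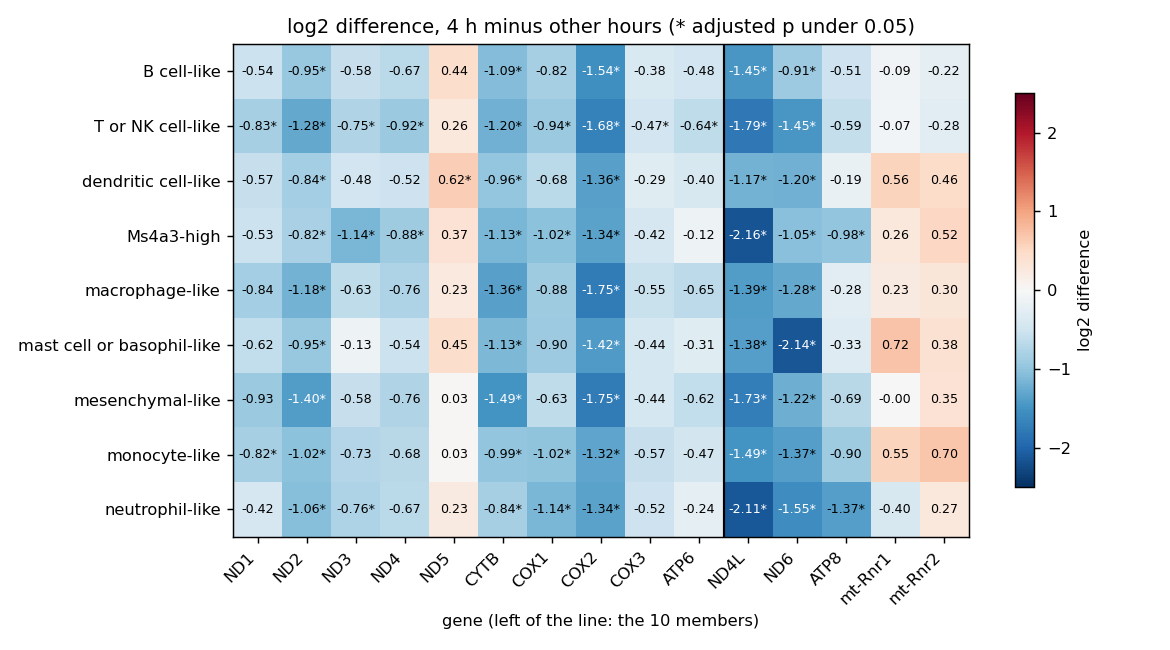
log2 differences between the 4 h libraries and the other hours (blue lower at 4 h, red higher) for the 10 genes and, right of the line, 5 further mitochondrially encoded genes, in 9 cell classes, with an asterisk where edgeR's adjusted p was under 0.05. The COX2, CYTB, ND2, ND4L and ND6 columns are blue with an asterisk in every class, and the ND5 column is red or near 0 throughout.

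Among the complex IV genes, COX2, whose product holds the copper centre that takes electrons from cytochrome c, differed most. Its level in B-cell-like cells was 2123, 1679, 1413 and 1699.6 at 4 h and 4720.1, 5895, 5742 and 2595 at the other hours, in CPM, which are the UMIs of the gene scaled to the total of the class. The 4 h libraries all lay below the rest, with a log2 difference of -1.54 ± 0.27 (SE) and an edgeR adjusted p of 0.00564. The neutrophil-like COX2 level was 1120.1, 1001, 981 and 976 at 4 h and 2209.7, 2462, 2671 and 1526 at the other hours in CPM, again with no overlap, and the log2 difference was -1.34 ± 0.20. The hour classes did not overlap for COX2 in any of the 9 classes, where 0.368% of the genes tested in every class did the same. Its log2 difference ran from -1.75 to -1.32, and it passed in at least 6 of the classes under every alternative tried.

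COX1, the catalytic subunit that holds the haem and copper site where oxygen is reduced, was lower at 4 h by less and with more spread. Its level in B-cell-like cells was 2451, 1726, 1181 and 1937 at 4 h and 3093, 3906, 4061 and 1101 at the other hours (CPM). TOE 4d 24h was the lowest of all 8 libraries, and the difference of -0.82 ± 0.39 in log2 had an adjusted p of 0.158 by edgeR. COX1 passed as lower in 4 of 9 classes, T or NK-cell-like, Ms4a3-high, monocyte-like and neutrophil-like cells. The count fell to 2 without any 1 of TO 2d 0h, TO 4d 4h, TO 4d 24h, TOE 2d 4h, TOE 2d 24h or TOE 4d 4h and to 1 with the arm and day stratum as a replicate block, and it was 8 without TOE 4d 24h. The pass in neutrophil-like cells was kept in 13 of 21 alternatives. In neutrophil-like cells it was 1966, 1472, 1448 and 1672 at 4 h and 2771, 3865, 4119 and 1604 at the other hours (CPM), with a log2 difference of -1.14 ± 0.29. COX3, a core subunit without a metal centre, passed only in T or NK-cell-like cells, with log2 differences from -0.57 to -0.29 over the classes. Its level in B-cell-like cells was 3978, 3340.1, 2525 and 3294 at 4 h and 3923, 5116, 4708 and 2364 at the other hours (CPM), so that the hour classes overlapped.

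CYTB, the haem protein at the core of complex III, passed as lower in all 9 classes. Its level in B-cell-like cells was 1504, 1174, 869.9 and 1223 at 4 h and 2326, 3367, 2584 and 1297 at the other hours (CPM). TOE 4d 24h lay between the 4 h libraries, and the other 3 libraries lay above them all. The log2 difference was -1.09 ± 0.30 (edgeR adjusted p = 0.0276). In T or NK-cell-like cells, with 1478, 1267, 1059.9 and 1235 at 4 h and 2543, 3407, 2586 and 2386 at the other hours (CPM), the hour classes did not overlap, and the log2 difference was -1.20 ± 0.16. Its highest adjusted p by edgeR was 0.0494, in monocyte-like cells, and leaving out TO 4d 4h reduced the passes of CYTB to 2 of 9 classes.

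Of the complex I genes, ND2, ND4 and ND5 encode the antiporter-like subunits of the proton-pumping membrane arm, while ND1 and ND3 lie near the quinone site, and the 5 genes did not move together. ND2 passed as lower in all 9 classes, with log2 differences from -1.40 to -0.82, although it passed in only 1 class without TO 4d 4h or without TOE 2d 4h. In B-cell-like cells ND2 was 922, 610.1, 449.6 and 678 at 4 h and 1042, 1649, 1274 and 916 at the other hours (CPM), where TOE 4d 24h lay between the highest 4 h libraries. ND1 passed in 2 classes, T or NK-cell-like and monocyte-like cells, with log2 differences from -0.93 to -0.42 over the classes. Its B-cell-like level was 1739, 1412, 1103 and 1268 at 4 h and 1633, 2655, 2028 and 1301 at the other hours (CPM), and TO 2d 4h lay above TO 2d 0h and TOE 4d 24h, so that the hour classes overlapped. ND4 also passed in 2, T or NK-cell-like and Ms4a3-high cells, with log2 differences from -0.92 to -0.52. Its B-cell-like level was 1877, 1506, 1184 and 1392 at 4 h and 2039.7, 2993, 2402 and 1556 at the other hours (CPM), where TOE 4d 24h lay inside the 4 h range. ND3 passed in 3 classes, T or NK-cell-like, Ms4a3-high and neutrophil-like cells, and its log2 differences ran from -1.14 to -0.13. In neutrophil-like cells it was 56.8, 43.6, 36.2 and 45.9 at 4 h and 71.9, 68.9, 68.1 and 59.6 at the other hours (CPM), without overlap, with a log2 difference of -0.76 ± 0.18 (edgeR adjusted p = 0.0226).

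ND5, the subunit at the far end of that arm, was the only one of the 10 genes with log2 differences above 0. In B-cell-like cells it was 256, 202, 164 and 161 at 4 h and 122, 155, 139.7 and 138 at the other hours (CPM), with all 4 h libraries above all others and a log2 difference of 0.44 ± 0.19 (edgeR adjusted p = 0.121), which did not pass. In dendritic-cell-like cells it was 287, 234, 223 and 202 at 4 h and 122, 148, 138 and 187 at the other hours (CPM) and passed, with 0.62 ± 0.15 (adjusted p = 0.0325). This pass was kept in 11 of 21 alternatives, and it was lost with arm and day in the fit, with the stratum as a replicate block, with cells limited to 2000 to 20000 UMIs outside the mitochondrial genome, at resolution 2 and without any 1 of 6 libraries, those other than TOE 2d 4h and TOE 4d 24h. The class that passed is the one with plasma cell genes among its leading genes. In monocyte-like cells it was 281, 174, 179 and 189 at 4 h and 156, 220.4, 159 and 285 at the other hours (CPM), where TO 2d 4h and TOE 4d 24h were the highest of the 8 libraries and the difference was 0.03 ± 0.22. Over the classes the differences ran from 0.03 to 0.62, and the sign turned in 10 of 186 class and setting combinations tried.

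ATP6, the subunit of complex V that forms the proton path of ATP synthase, passed in T or NK-cell-like cells alone of the 9 classes. Its level there was 2748, 2604, 1957 and 2264 at 4 h and 3012, 4047, 3600.3 and 3459 at the other hours (CPM), with no overlap and a log2 difference of -0.64 ± 0.15 (edgeR adjusted p = 0.0129). In B-cell-like cells it was 2947, 2450.0, 1671 and 2288 at 4 h and 2710.2, 4217, 3549.7 and 1847 at the other hours (CPM), and the hour classes overlapped. Over the classes the log2 differences ran from -0.65 to -0.12. Over all 90 combinations of gene and class, the CPM of all 4 h libraries lay below all others in 31 and above them in 2, and 7.25% of all gene and class combinations tested lay below and 14.5% above without overlap.

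Of the 27 other mitochondrial genes listed, ND4L, ND6 and ATP8 encode proteins. ND4L, a small complex I subunit read from the same messenger as ND4, passed as lower in all 9 classes, with log2 differences from -2.16 to -1.17, against -0.92 to -0.52 for ND4. In B-cell-like cells ND4L was 114, 64.6, 59.7 and 61.5 at 4 h and 198, 188, 239 and 159 at the other hours (CPM), with all 4 h libraries below all others. ATP8, on one messenger with ATP6, passed in 2 classes, Ms4a3-high and neutrophil-like cells, with -1.37 ± 0.24 in the latter against -0.24 ± 0.22 for ATP6. ND6, the one protein gene read from the other strand, passed as lower in all 9 classes, from -2.14 to -0.91. Its levels were low, with 1.63 to 15.5 CPM at 4 h and 3.94 to 32.7 CPM at the other hours over classes and libraries. All 4 h libraries lay below all others in 7 of the 9 classes, where 7.25% of all gene and class combinations did so. ND4L overlaps ND4 and ATP8 overlaps ATP6 on the genome, so reads may be split between the partners and these values are uncertain.

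The ribosomal RNA genes mt-Rnr1 and mt-Rnr2 did not pass in any class, with log2 differences from -0.40 to 0.72 and from -0.28 to 0.70 and adjusted p of at least 0.0839 by edgeR. An unadjusted p under 0.05 was reached in 2 of their 18 tests, where 29.7% of all tests reached it. In neutrophil-like cells mt-Rnr2 was 7539.9, 8727, 5304 and 4141 at 4 h and 4025, 4385, 5055 and 4895 at the other hours (CPM), where TO 2d 0h was the lowest of the 8 libraries and the hour classes overlapped. Of the 22 tRNA genes, 22 were tested in B-cell-like, 15 in neutrophil-like and 17 in monocyte-like cells. In these classes 4, 7 and 4 passed as lower and 5, 1 and 1 as higher, beside 11.8%, 6.18% and 6.67% of all genes lower and 10.2%, 6.43% and 6.32% higher. Whether these UMIs came from cut tRNAs or from longer precursors was not tested.

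Because the common level cancels in it, the share of each gene among the UMIs of the 10 genes shows how they vary against each other, and it is given as a description without a test. COX2 made up 11.8%, 11.8%, 13.2% and 12.1% at 4 h and 21.6%, 19.5%, 21.5% and 19.5% at the other hours of these UMIs in B-cell-like cells. TOE 4d 24h, whose summed share was like that of the 4 h libraries, lay here with the other hours. The COX2 part was lower at 4 h without overlap in all 9 classes, and the ATP6 part higher without overlap in all 9, with 16.3%, 17.2%, 15.6% and 16.2% at 4 h and 12.4%, 13.9%, 13.3% and 13.9% at the other hours in B-cell-like cells. The COX3 part was higher without overlap in 8 classes, all but neutrophil-like cells, and the ND5 part in 8, all but monocyte-like cells. The CYTB part was lower without overlap in 7 classes, all but monocyte-like and neutrophil-like cells. The other 5 genes, ND1, ND2, ND3, ND4 and COX1, separated the hours in at most 2 classes each. The parts of the 10 genes add up to a fixed whole, so a lower COX2 part raises the other parts together. ATP6 and COX3, higher as parts, had log2 differences below 0 in all 9 classes, from -0.65 to -0.12 and from -0.57 to -0.29. Of the 90 combinations of gene and class, 20 were lower and 29 higher at 4 h without overlap. Without TOE 4d 24h the total of 49 was 60, although leaving a library out can only keep or raise such a count. A part is defined within the 10 genes only, so no share over all genes stands beside these counts.

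**Figure D3:**
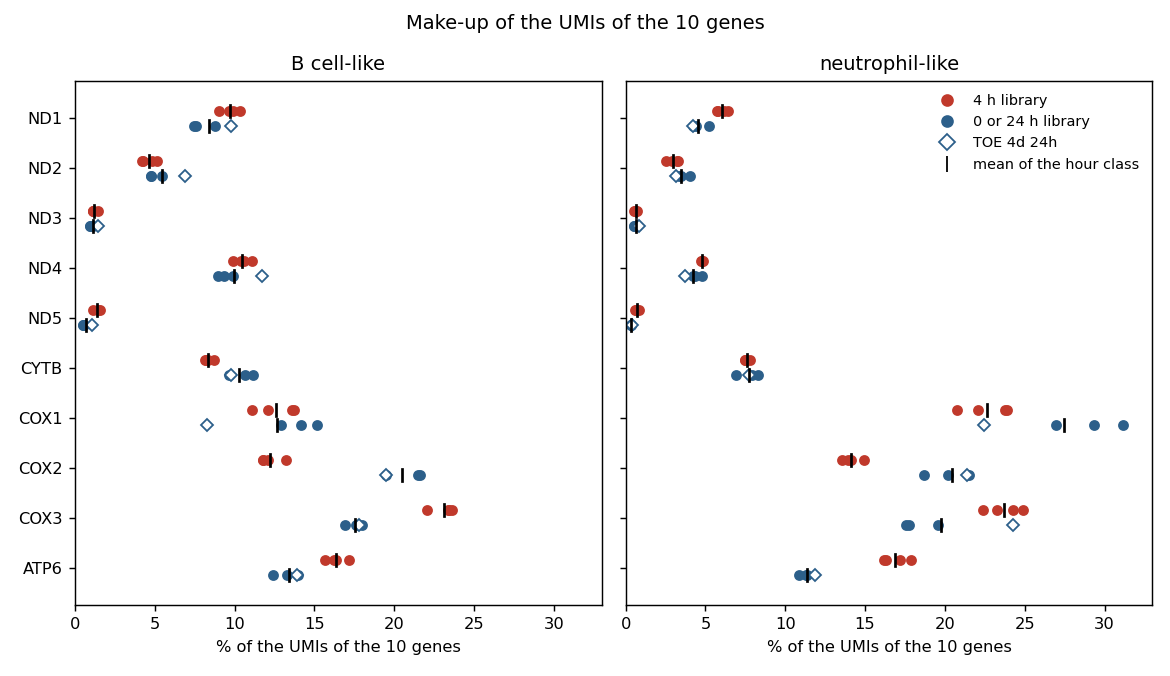
Percentage of the UMIs of the 10 genes that falls on each gene in B-cell-like (left) and neutrophil-like cells (right), 1 point per library, red for 4 h, blue for 0 or 24 h, an open diamond for TOE 4d 24h and black bars for the means. COX2 lies to the left and ATP6 to the right at 4 h in both panels, and COX1 lies between 20.7% and 31.2% in neutrophil-like cells but between 8.27% and 15.2% in B-cell-like cells.

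The make-up also differed between cell classes, most in neutrophil-like cells. COX1 made up 23.8%, 20.7%, 22.0% and 23.9% at 4 h and 27.0%, 29.4%, 31.2% and 22.5% at the other hours of the UMIs of the 10 genes in the neutrophil-like class. In B-cell-like cells it made up 8.27% to 15.2%, below every neutrophil-like value, and its mean over libraries was lowest in T or NK-cell-like cells, at 12.5%. The complex I genes made up less in neutrophil-like cells: ND4 3.72% to 4.84% against 8.98% to 11.7% in B-cell-like cells, and ND1 4.21% to 6.38% against 7.47% to 10.3%. ND2 and ND3 were likewise lower in every neutrophil-like value than in every B-cell-like value. ND5 and CYTB were lower in neutrophil-like cells in 8 of 8 libraries, though their ranges over libraries overlapped. Of the 10 genes, ND1, ND2, ND3, ND4, ND5, CYTB and ATP6 had their lowest mean part in neutrophil-like cells, and COX1 and COX3 their highest.

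Shock waves were the treatment of the study, and TOE was compared with TO with the hour class in the fit, 4 libraries against 4. None of the 90 tests of the 10 genes passed, where 0.00% of all tests did, and 2 of the 90 had an unadjusted p under 0.05 by edgeR, as had 4.77% of all tests. DESeq2 and the fits without each library in turn, TOE 4d 24h included, also gave 0 of 90. The log2 differences (TOE minus TO) were below 0 in 89 of 90, with a median of -0.29 and a range of -0.52 to 0.02, against a median of 0.01 over all tests. These 90 values share 8 libraries and are not independent, and the count of signs is not given without TOE 4d 24h. At the other hours, the day 2 library was taken at 0 h in TO and at 24 h in TOE. In B-cell-like cells, the share was lower in TOE in each pair of the same day and hour, 1.07% against 1.81% at 2d 4h, 1.41% against 1.43% at 4d 4h and 1.33% against 3.02% at 4d 24h. In neutrophil-like cells the pairs were 0.657% against 0.827%, 0.700% against 0.709% and 0.714% against 1.32%, and each pair is 1 library against 1. The share was not lower in TOE in every class: mesenchymal-like cells had 2.04% against 2.01% at 2d 4h and 1.76% against 1.57% at 4d 4h. At 4d 4h it was also higher in TOE in monocyte-like (1.58% against 1.48%), macrophage-like (2.04% against 1.84%) and mast cell or basophil-like cells (1.33% against 1.21%) and in dendritic-cell-like cells. For day 4 against day 2, none of the 90 passed, where 0.00% of all tests did, and none had an unadjusted p under 0.05, which 2.53% of all tests had. The differences had a median of -0.02 and a range of -0.28 to 0.33. The hour difference was not shown to differ between the arms for any of the 10 genes: the interaction of hour class and arm passed in 0 of 90 tests, with 0 at an unadjusted p under 0.05, where 0.000905% of all tests passed and 6.01% had an unadjusted p under 0.05.

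**Figure D4:**
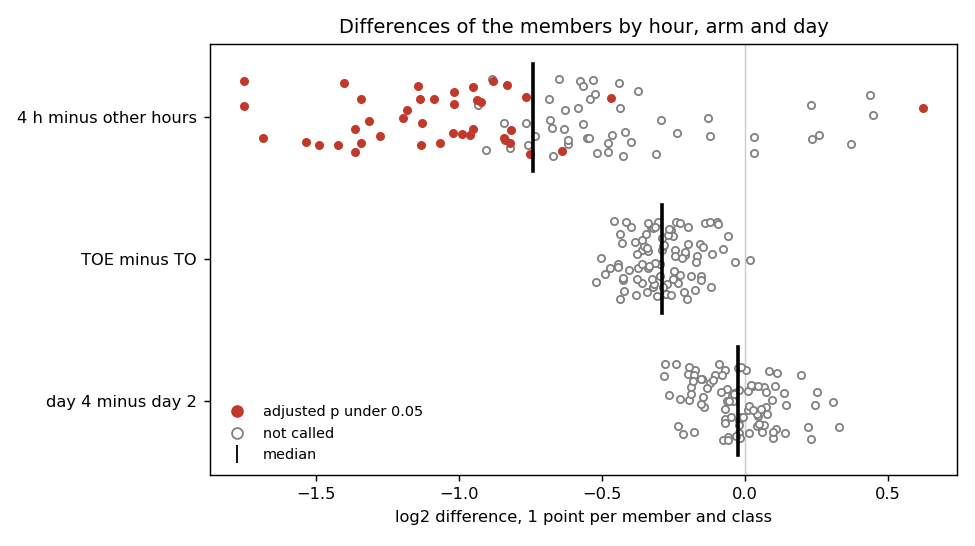
log2 differences of the 10 genes in 9 cell classes (90 points per row) for the hour, arm and day comparisons, filled where edgeR's adjusted p was under 0.05, with the median as a black bar. The hour row has 41 filled points and a median of -0.74, and the arm and day rows have 0 filled points.

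The respiratory chain holds many more subunits encoded in the nucleus, and most of those that passed were lower at 4 h as well. In B-cell-like cells 55 of 78 tested nuclear genes of complexes I to V passed as lower and 2 as higher (all genes 11.8% and 10.2%), with a median log2 difference of -0.53 against -0.02 for all genes. In neutrophil-like cells the counts were 26 lower and 3 higher of 78 (all genes 6.18% and 6.43%), with a median of -0.32, and in monocyte-like cells 21 and 3 of 78 (all genes 6.67% and 6.32%), with a median of -0.29. Over the 9 classes the medians ran from -0.60 to -0.29, and 18 to 55 genes passed as lower, where 3.03% to 11.8% of all genes did so by class. By complex in B-cell-like cells, 28 of 37 complex I, 1 of 4 complex II, 6 of 9 complex III, 8 of 12 complex IV and 12 of 16 complex V genes passed as lower.

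Atp5me, a small subunit of ATP synthase, had the lowest adjusted p among the complex V genes in all 3 of these classes. In B-cell-like cells it was 97.8, 76.0, 82.5 and 87.4 at 4 h and 236, 219.6, 189.8 and 268 at the other hours (CPM), without overlap, and the log2 difference was -1.47 ± 0.14. In neutrophil-like and monocyte-like cells the log2 differences were -1.55 ± 0.15 and -1.28 ± 0.14. Cox7a2, a complex IV subunit, passed as lower with -1.05 ± 0.11, -0.92 ± 0.14 and -0.71 ± 0.14 in B-cell-like, neutrophil-like and monocyte-like cells. Further genes that passed as lower, each among the 2 lowest adjusted p of its list, were Ndufa13 (-0.85 ± 0.11), Ndufa5 (-0.94 ± 0.13), Uqcr11 (-0.89 ± 0.12) and Uqcr10 (-0.82 ± 0.14) in B-cell-like cells and Ndufb1 (-1.24 ± 0.17) and Uqcrq (-0.88 ± 0.14) in neutrophil-like cells, and these 6 genes passed as lower in all 3 classes. The opposite was seen for Atp5f1b, the catalytic beta subunit of ATP synthase, which was higher in these 3 classes, with 0.41 ± 0.11, 1.11 ± 0.15 and 0.67 ± 0.12. Ndufa6 was higher in B-cell-like (0.38 ± 0.11) and monocyte-like cells (0.64 ± 0.10), Atp5mc3 in neutrophil-like (0.67 ± 0.13) and monocyte-like cells (0.53 ± 0.12), and Sdhc in neutrophil-like cells (0.78 ± 0.15).

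**Figure D5:**
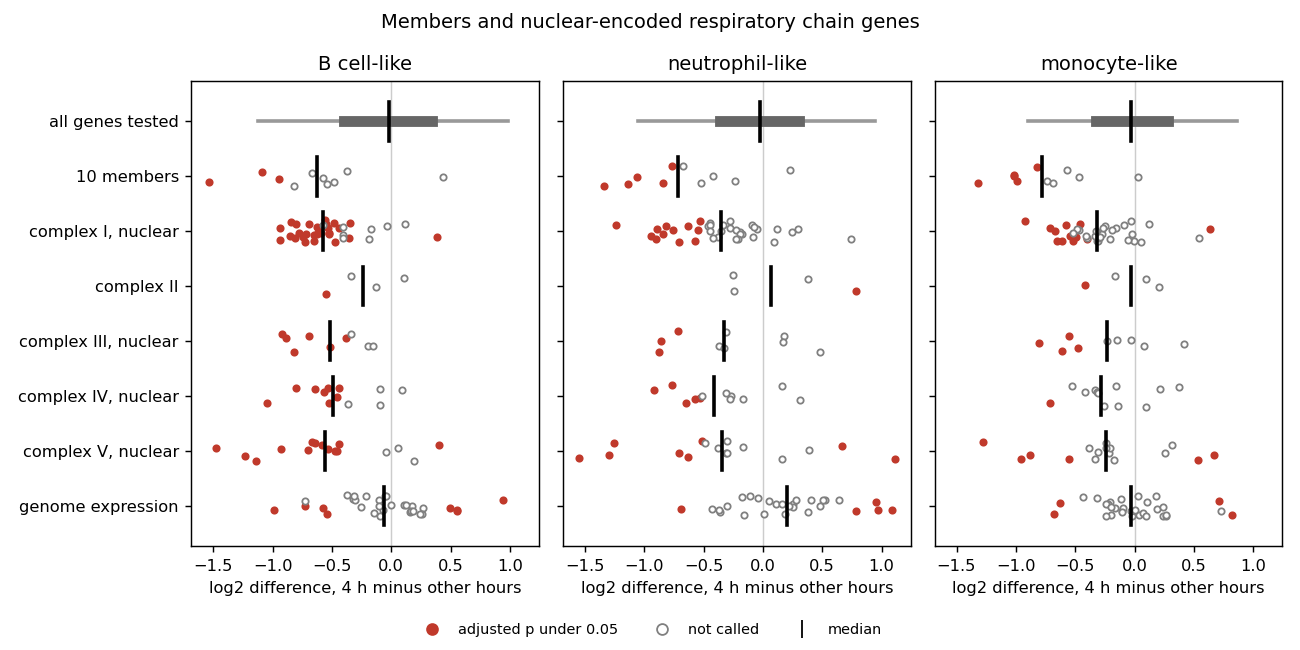
log2 differences between 4 h and the other hours in 3 cell classes for all genes tested (thick bar 25th to 75th percentile, thin bar 5th to 95th percentile), the 10 genes, nuclear-encoded subunits of complexes I to V and genes of mitochondrial genome expression, filled where edgeR's adjusted p was under 0.05, with medians as black bars. The medians of the 10 genes and of nuclear complexes I, III, IV and V lie below 0 in the 3 panels, and the genome expression genes lie on both sides of 0.

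The genes that transcribe, process and maintain mitochondrial RNA and DNA did not move in one direction. The counts were 4 lower and 4 higher of 32 in B-cell-like, 1 lower and 4 higher of 28 in neutrophil-like and 2 lower and 2 higher of 32 in monocyte-like cells, with medians of -0.06, 0.20 and -0.03. Of all genes, 11.8%, 6.18% and 6.67% passed as lower in these classes and 10.2%, 6.43% and 6.32% as higher, so that the B-cell-like and monocyte-like counts stood near those shares. Slirp, a stabiliser of mitochondrial messengers together with Lrpprc, was higher in B-cell-like (0.55 ± 0.13), neutrophil-like (0.95 ± 0.16) and monocyte-like cells (0.82 ± 0.16), and Trmt10c, a subunit of mitochondrial RNase P, in neutrophil-like cells (1.09 ± 0.23). Mterf1, of the family of mitochondrial transcription terminators, was higher in B-cell-like (0.94 ± 0.19) and neutrophil-like cells (0.79 ± 0.22), and Mterf3 in B-cell-like (0.56 ± 0.13), neutrophil-like (0.97 ± 0.24) and monocyte-like cells (0.71 ± 0.12), whereas Mterf4 was lower in monocyte-like cells (-0.63 ± 0.14). Ssbp1, which binds single-stranded mitochondrial DNA, was lower in B-cell-like cells (-0.73 ± 0.13), and Hsd17b10, another RNase P subunit, in B-cell-like (-0.58 ± 0.11) and neutrophil-like cells (-0.69 ± 0.17). Fastkd2, an RNA-binding protein of the mitochondrial ribosome pathway, was lower in B-cell-like (-0.99 ± 0.27) and monocyte-like cells (-0.68 ± 0.19). The other 2 passes in these classes were Fastk, lower, and Polg2, higher, both in B-cell-like cells.

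For regulators of mitochondrial biogenesis, the counts were 1 lower and 1 higher of 8 in B-cell-like, 0 lower and 0 higher of 7 in neutrophil-like and 0 lower and 3 higher of 8 in monocyte-like cells, beside all-gene shares of 11.8%, 6.18% and 6.67% lower and 10.2%, 6.43% and 6.32% higher. Esrra, a nuclear receptor that drives genes of oxidative metabolism, was higher in B-cell-like (0.58 ± 0.14) and monocyte-like cells (0.69 ± 0.15), Pprc1, a coactivator of the PGC-1 family, in monocyte-like cells (0.99 ± 0.14), and Gabpa was lower in B-cell-like cells (-0.48 ± 0.14). For Gabpa the hour classes overlapped. For mitochondrial turnover and unfolded protein response, the counts were 0 lower and 1 higher of 14 in B-cell-like, 1 lower and 0 higher of 14 in neutrophil-like and 0 lower and 0 higher of 14 in monocyte-like cells, beside the same all-gene shares. Bnip3l, a mitophagy receptor, was higher in B-cell-like cells (0.52 ± 0.11), and Pink1, a kinase that marks damaged mitochondria, lower in neutrophil-like cells (-0.61 ± 0.18).

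Lists that can follow tissue handling, RNA quality or free RNA are given beside these results, and their part in them was not tested. Heat shock genes held, as a share of UMIs, 0.289% to 0.681% at 4 h and 0.185% to 0.350% at the other hours in B-cell-like cells, which overlapped, with counts of 0 lower and 3 higher of 7 in B-cell-like, 0 lower and 3 higher of 7 in neutrophil-like and 0 lower and 0 higher of 7 in monocyte-like cells (all genes 11.8%, 6.18% and 6.67% lower and 10.2%, 6.43% and 6.32% higher). T or NK-cell-like cells had 4 of 7 higher, with a median log2 difference of 1.05, and dendritic-cell-like, macrophage-like and mesenchymal-like cells 1 lower each, where 8.44% of all genes were higher in the first and 5.28%, 6.88% and 3.03% lower in the other 3. Of the monocyte-like cells, a cluster of 3484 cells before the mitochondrial limit had Hspa1b and Bag3, both stress genes, among its 10 leading genes. Hspa1b, an inducible chaperone, was higher at 4 h in B-cell-like (2.20 ± 0.48) and neutrophil-like cells (2.86 ± 0.35), and so was Hsph1 (1.53 ± 0.25 and 1.70 ± 0.44). Immediate-early genes held, as a share of UMIs, 0.300% to 0.507% at 4 h and 0.239% to 0.809% at the other hours in B-cell-like cells, which overlapped, with counts of 0 lower and 1 higher of 18 in B-cell-like, 1 lower and 0 higher of 18 in neutrophil-like and 1 lower and 2 higher of 18 in monocyte-like cells and the all-gene shares just given for these classes. More of them passed as lower in other classes: 8 of 18 in mesenchymal-like cells, with a median log2 difference of -1.11, 4 in Ms4a3-high cells and 3 each in dendritic-cell-like and macrophage-like cells, beside 3.03%, 6.32%, 5.28% and 6.88% of all genes, and none passed as higher there, where 2.14%, 3.94%, 4.99% and 5.97% of all genes did. In T or NK-cell-like cells 1 was lower and 2 higher of 17, and in mast cell or basophil-like cells 1 and 1 of 16, beside 7.64% and 5.81% of all genes lower and 8.44% and 4.06% higher. Egr3 was higher in B-cell-like cells (1.25 ± 0.31), Ier3 (1.42 ± 0.37) and Zfp36 (0.82 ± 0.22) in monocyte-like cells, and Atf3 was lower in neutrophil-like (-1.59 ± 0.45) and monocyte-like cells (-1.23 ± 0.35). The hour classes overlapped for Zfp36 in monocyte-like and for Atf3 in neutrophil-like cells. For the latter, TOE 4d 24h, at 40.3 CPM, lay within the 4 h range of 36.6 to 62.6 CPM. Malat1 and Neat1, the nuclear RNAs listed as a sign of damaged cells, were not listed under those symbols.

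Cytosolic ribosomal protein genes held 14.1% to 15.2% of UMIs in B-cell-like cells at 4 h and 15.1% to 17.6% at the other hours, with counts of 37 lower and 16 higher of 95 in B-cell-like, 29 lower and 8 higher of 87 in neutrophil-like and 19 lower and 17 higher of 90 in monocyte-like cells, where 11.8%, 6.18% and 6.67% of all genes were lower and 10.2%, 6.43% and 6.32% higher. Genes of this list moved apart, and by the lowest adjusted p in each direction Rps29 (-1.24 ± 0.17) and Rpl38 (-1.22 ± 0.17) were lower and Rpl23a (1.35 ± 0.13) and Rpl21 (1.29 ± 0.12) higher in the B-cell-like class. In neutrophil-like cells Rps29 (-1.74 ± 0.15) and Rpl37 (-1.47 ± 0.14) were lower and Rpl4 (1.62 ± 0.18) and Rpl21 (1.37 ± 0.15) higher, and in monocyte-like cells Rps29 (-1.23 ± 0.17) and Rps28 (-1.07 ± 0.17) were lower and Rpl23a (1.46 ± 0.11) and Rpl31l4 (1.42 ± 0.12) higher. Many of these genes have near-identical copies in the genome, so their counts are uncertain. Haemoglobin genes, whose UMIs outside erythroid cells can be free RNA, held 0.0454% to 0.105% of UMIs in B-cell-like cells at 4 h and 0.00135% to 0.159% at the other hours, the lowest in TOE 4d 24h. In B-cell-like cells Hbb alone of 7 tested passed, as lower (-4.29 ± 1.35), where TO 2d 0h and TOE 2d 24h were far above the rest. Macrophage-like cells had 1 lower and 2 higher of 7, T or NK-cell-like cells 1 lower of 6, and the remaining classes none, where 11.8%, 6.88% and 7.64% of all genes were lower in B-cell-like, macrophage-like and T or NK-cell-like cells and 5.97% higher in macrophage-like cells. How much free RNA of the 10 genes the cells carried was not measured.

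Nuclear genes whose level followed the summed share of the 10 genes were sought over the 72 sums of 9 classes by 8 libraries, by Pearson's r of log2 CPM with the log2 share among 7320 genes. The highest values were 0.867 for Atp5f1e, the epsilon subunit of ATP synthase, 0.829 for Ndufs6l1, 0.825 for Atp5mk, another subunit associated with ATP synthase, 0.824 for LOC103691688 and 0.822 for Uqcrq, a subunit of complex III. With the mean of each class removed, which leaves the differences between libraries, r was 0.717 to 0.802 for the 5 genes. The 72 points share 8 libraries and 9 classes and are not independent, so these values are a description.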

How the data were processed

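Single-cell 3' RNA libraries of the osteotomy site, 1 per condition and 8 in all, were used as deposited. The authors' matrices hold UMI counts per gene and barcode, which were not normalised, and per the labels Cell Ranger 9.0.0, Seurat and R 4.0.3 were used, with GRCh38 and mRatBN7.2 listed as builds without a role. The 10 genes and all gene lists were chosen with earlier results of these data known. Barcodes with at least 200 genes were kept, doublets were removed by a Scrublet score above 0.25, and cells were clustered in scanpy 1.11.5 (10000 UMIs per cell, 2000 variable genes without mitochondrial genes, 30 components, 15 neighbours, Leiden resolution 1). Cells above 20% mitochondrial UMIs were removed after clustering, or kept in the repeat without this limit. A cluster took the name of its best-matching marker list, with at least 3 raised markers. Clusters were left unnamed for low UMIs, or for small size without own markers among the 10 leading genes. The same held where another list had more of these leading genes or, for a weaker match, as many. The class that matched the granulocyte-monocyte progenitor markers is called Ms4a3-high. Shares are sums over the cells of a class.

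Counts were summed per library and class, for the 9 classes with at least 20 cells in each library, and tested with edgeR 4.0.16 (R 4.3.3, TMM, filterByExpr, quasi-likelihood test, Benjamini-Hochberg over all genes of a class), 4 libraries at 4 h against 4 at 0 or 24 h. The SE of a log2 difference is its size divided by the square root of F. Arm and day were tested with the hour class in the fit, and the interaction with arm and day in it. Alternatives were DESeq2 1.42.0, other scaling, filters, clustering, covariates and leaving out each library. The edgeR fit of the hour comparison was tested on simulated counts of the B-cell-like, neutrophil-like and monocyte-like classes, with a fixed spread between libraries. The other steps were not tested in this way. Named genes are the 10 genes, other mitochondrial genes and, of each list, the 2 with the lowest adjusted p in each direction in B-cell-like, neutrophil-like and monocyte-like cells, and the 5 nuclear genes most correlated with the summed share. Of the list of mitochondrial genome expression, every pass in these classes is named. Depth was 95954800 to 144146202 UMIs per library, and Wilson intervals cover counting error only.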

Additional observations from a re-analysis of the deposited data

Results flagged for a closer look

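In each group of 4 libraries, a library was singled out where its gap to the nearest other, divided by the range of the 4, was above Dixon's 95% critical value for 4 values, and chance does this in about 1 in 20 groups, against 9 of the 140 groups looked at here. In mesenchymal-like cells the summed share of TO 4d 24h was 3.87%, against 2.54 to 2.64% in the other libraries of 0 or 24 h. TO 2d 4h stood apart from the other 4 h libraries in 4 values. ND5 in monocyte-like cells was 281 CPM there, against 174 to 189 CPM. The part of ND3 among the UMIs of the 10 genes was 1.44% in B-cell-like cells, against 1.10 to 1.13%, and 1.54% in monocyte-like cells, against 1.12 to 1.17%. The part of COX3 in B-cell-like cells was lower there, at 22.0%, against 23.4 to 23.6%. TOE 4d 24h stood apart from the libraries of 0 or 24 h in the part of ND5, with 1.03% against 0.511 to 0.559% in B-cell-like cells and 1.46% against 0.529 to 0.639% in monocyte-like cells. In monocyte-like cells, the part of CYTB was 8.11% in TOE 4d 4h, against 7.74 to 7.77% in the other 4 h libraries, and the part of ATP6 was 12.3% in TO 2d 0h, against 13.1 to 13.3% in the other libraries of 0 or 24 h.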

How the results depend on the processing

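For the hour comparison, 41 of 90 tests of the 10 genes passed, and leaving out 1 library at a time gave 17 to 66, so the number of passes depended on single libraries. It was 17 without TO 4d 4h, 20 without TOE 2d 4h, 21 without TOE 4d 4h, 22 without TOE 2d 24h, 23 without TO 4d 24h, 25 without TO 2d 0h and 66 without TOE 4d 24h. With the arm and day stratum as a replicate block it was 16. In the fit with the fewest passes of those without 1 library, that without TO 4d 4h, log2 differences ran from -1.30 to -0.75 for ND2 and from -1.41 to -0.83 for CYTB. With all libraries they ran from -1.40 to -0.82 and from -1.49 to -0.84. Shares over all genes are given only for the fit without TOE 4d 24h, where 10.8% of all tests passed as lower. The correlations of deviations of same-stratum samples ran from -0.470 to 0.215, and the 4 of 36 over 0.1 were all in the TO day 2 stratum, in B-cell-like (0.215), monocyte-like (0.158), T or NK-cell-like (0.143) and dendritic-cell-like cells (0.131). The other 12 alternatives gave 30 (arm and day in the fit) to 52 (DESeq2), and the macrophage-like class could not be tested with doublets kept, with the limit of 20% applied before clustering or at a resolution of 2. No pass changed direction in any alternative run, and of differences that did not pass, the sign turned in 10 of 186 for ND5, 2 for ATP6 and 1 for ND3. TOE against TO and day 4 against day 2 gave 0 passes in every alternative run. The median difference of the summed share over the 9 classes was -0.877 percentage points and ran from -1.15 to -0.636 without 1 library, and it stayed below 0 in every alternative run. The count of 49 parts without overlap ran from 49 to 60 without 1 library. Leaving a library out can only keep or raise this count, so the range is no check of it. Hour and library preparation cannot be told apart, each condition was 1 library, and transcripts from empty droplets were not analysed here.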

Other observations

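Endothelial-like and erythroid-like cells were too few in some libraries for a test, with 16 to 101 and 351 to 586 cells per library, the latter without TOE 4d 24h, which had 0. In endothelial-like cells, which line vessels, the summed share of the 10 genes was 1.62%, 1.26%, 0.959% and 1.19% at 4 h and 2.45%, 3.02%, 2.89% and 1.59% at the other hours. The 4 h libraries lay below TO 2d 0h, TO 4d 24h and TOE 2d 24h, and TOE 4d 24h lay just below the highest of them, as in several larger classes. In erythroid-like cells, which lose their mitochondria as they mature, the share was 0.951%, 0.820%, 0.976% and 0.915% at 4 h and 1.56%, 2.59% and 1.87% at the other hours. With haemoglobin left out of the total, it was 1.64%, 1.53%, 1.53% and 1.62% at 4 h and 2.82%, 4.06% and 3.34% at the other hours, so that the 4 h libraries lay below the others on both scales.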
